A study of Homo sapiens with 12 samples.

Results

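Integrins and laminins are the receptors and one of the main ligand families through which cells hold on to the basement membrane. They were followed here in 4 human glioblastoma lines by RNA sequencing, as all gene symbols of the deposited expression table that name an integrin alpha subunit, an integrin beta subunit or a laminin chain. There were 37 such genes of 31681 symbol rows: 18 integrin alpha genes, 7 integrin beta genes and 12 laminin genes. The groups were U251MG and U87MG, which are long-established parental glioblastoma lines, and U251TR and U87TR, resistant lines that the submitters raised from these parents by repeated exposure to rising concentrations of temozolomide, a DNA-alkylating drug. Each group had 3 libraries, and all 4 lines were grown in the same serum-supplemented medium. Each parent had 1 resistant line, and the labels state neither if it was a clone nor if its 3 libraries are separate cultures. The p-values therefore measure the spread between these libraries, which may be technical. With 1 line each, drug resistance and any other property acquired during selection cannot be told apart.

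An integrin is a pair of 1 alpha and 1 beta subunit that spans the cell membrane and ties matrix outside to actin inside. The alpha subunit largely sets the ligand: ITGA3, ITGA6 and ITGA7 bind laminins, ITGA1, ITGA2, ITGA10 and ITGA11 bind collagens, and ITGA5 and ITGAV bind proteins with an RGD motif such as fibronectin. ITGB1 pairs with most of the alpha subunits, and ITGB4 pairs with ITGA6 alone. A laminin is a secreted trimer of 1 alpha, 1 beta and 1 gamma chain, and each chain is the product of its own gene. Laminins and integrins are known in glioblastoma for their part in invasion along blood vessels.

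Values are FPKM, fragments per kilobase of transcript scaled to the mapped fragments of the library. They are scaled by length, so levels can be set side by side between genes. In bulk samples such as these, fewer cells that express a gene and less of its RNA per cell cannot be told apart. Of the 37 genes, 27 passed a filter of 1 FPKM or more in at least 3 libraries: 12 integrin alpha genes, 4 integrin beta genes and 11 laminin genes. Counts of members below are over these 27. Just inside the filter was LAMC3 with 1.21, 0.89 and 1.19 FPKM in U251MG and 1 U251TR library at 1 FPKM, and just outside it was ITGB7 with 1.17, 0.84 and 1.46 FPKM in U87TR. The 10 genes below the filter were ITGA2B, ITGA8, ITGA9, ITGAD, ITGAL, ITGAM, ITGB2, ITGB6, ITGB7 and LAMB4. Their highest values in any library ran from 0.01 FPKM for ITGA8 to 1.46 FPKM for ITGB7. The partner chain of the leukocyte integrins, ITGB2, reached 0.54 FPKM at most. The heat map shows the genes named here in all 12 libraries.

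**Figure D1:**
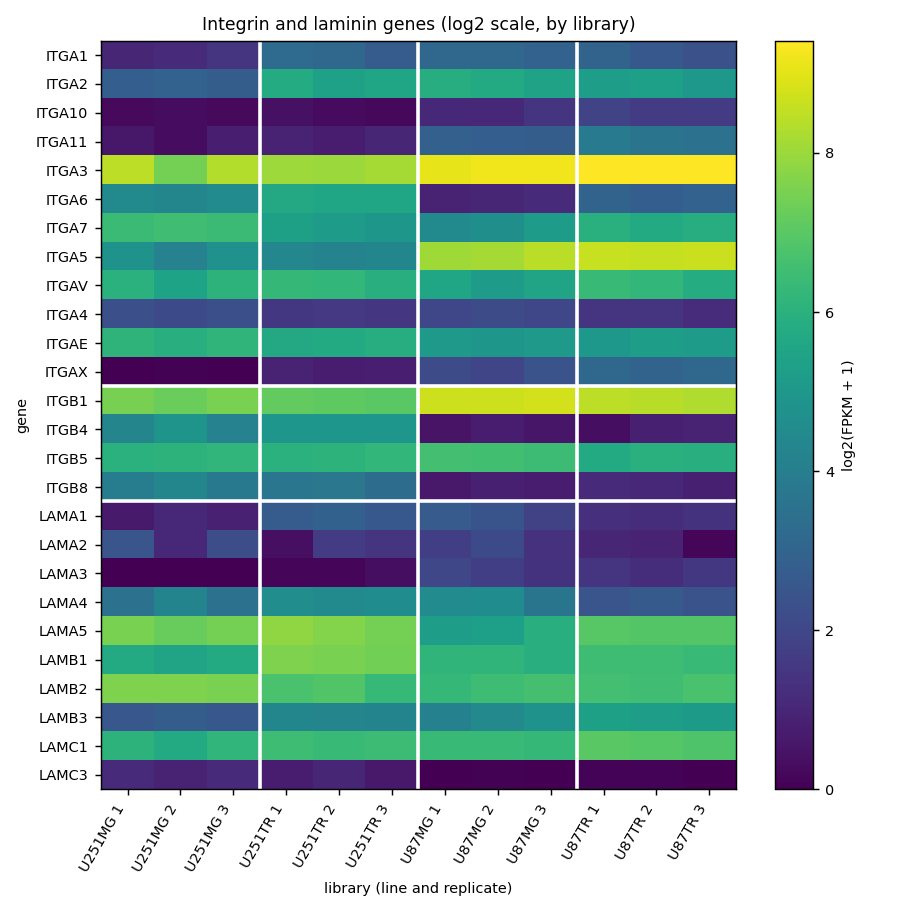
Heat map of log2(FPKM + 1) for the named integrin and laminin genes that passed the filter (rows, integrin alpha, integrin beta and laminin genes from top to bottom) in the 12 libraries (columns, 3 for each line). ITGA3 and ITGB1 were bright in every library, while ITGA6, ITGB4 and ITGB8 were brighter in the 6 U251 libraries and ITGA5 in the 6 U87 libraries.

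Library totals ran from 695282 to 785754 summed FPKM, and read counts were not used here, so the read depth is unknown. Rank correlations across genes within a group ran from 0.977 to 0.993. U251MG replicate 2 (0.977 and 0.978 with the other U251MG libraries) and U87MG replicate 3 (0.983 and 0.987) stood apart, and results that rest on them are given without them. Code numbers in the column names run on through 9 libraries, while the 3 of U87TR belong to a later run of numbers. In U87, that run and resistance cannot be told apart. The same limit holds for the difference between the changes and for calls in both lines, since both use U87TR. The 6 glioma and astrocyte marker genes taken were not constant: in U251TR 2 rose and 4 fell, and in U87TR 2 rose and 1 fell. GFAP went from 22.8 ± 6.19 FPKM in U251MG to 396 ± 17.4 in U251TR, and NES from 196 ± 29.4 to 42.6 ± 2.75 (SD, n = 3). SOX2, S100B and VIM also fell in U251TR, to 113 ± 1.51, 1.89 ± 0.528 and 817 ± 43.1 FPKM from 219.8 ± 19.6, 9.87 ± 1.28 and 1702 ± 669 FPKM, and CD44 rose from 396 ± 32.7 to 476 ± 19.1 FPKM. In U87TR, CD44 fell from 1045 ± 87.3 to 507 ± 46.3 FPKM, and NES rose from 7.79 ± 1.09 to 25.5 ± 0.857 FPKM (SD, n = 3). The part of these changes in the results below was not tested. The glial genes SOX2 and S100B were listed at 0 in all U87MG libraries, and GFAP rose from 0.753 ± 0.575 FPKM there to 1.75 ± 0.546 in U87TR (SD, n = 3). Of 5 leukocyte markers, 4 summed to between 0.16 and 0.78 FPKM per library. The fifth, CD68, which codes for a lysosomal protein, went from 1.81 ± 0.442 FPKM in U251MG to 4.41 ± 1.5 in U251TR, and from 196 ± 7.86 FPKM in U87MG to 332 ± 16.9 in U87TR (SD, n = 3). The 2 platelet markers measured summed to at most 1.23 FPKM.

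The first question was which of these genes set U251TR apart from its parent. The laminin beta chain genes traded places: LAMB1 rose 3.58-fold and LAMB2 fell by 0.94 on the log2 scale. The collagen receptor gene ITGA2 rose 6.6-fold, ITGA1 and LAMA1 rose 3.64- and 3.66-fold, and LAMB3 rose by 1.66 on the log2 scale. Folds here are those of FPKM + 1 from limma. Among laminin receptors, ITGA6 rose 2.23-fold and ITGA7 fell by 1.28 on the log2 scale. In all, 16 of 27 members changed (59.3%), where 53.2% of the 15449 genes tested changed. Of these 10 were higher and 6 lower, against 33.6% and 19.6% of all genes tested. At 2-fold or more there were 7, against 13.6%. The members' share of changes of any size lay close to that of all genes. After rescaling every library to the same sum, 11 members were higher and 3 lower. The calls over all genes moved the same way, from 63.2% higher to 72.2% higher. Median-of-ratios scaling and quantile normalization each gave 9 members higher and 6 lower. Under these, 50.6% and 50.1% of the calls over all genes were higher, so the background direction depends on scaling. Between the groups, 17 of the 27 members had no overlap of libraries, against 58.9% of all genes tested. The median log2 fold change of the members was 0.22, and that of all genes tested was 0.10. Without U251MG replicate 2 the count of changed members was 19, and 57.8% of all genes tested changed.

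The same question was asked of U87TR. LAMA5 rose 2.66-fold and LAMA4 fell by 1.75 on the log2 scale. ITGA6 rose 3.72-fold, ITGA7 rose 2.1-fold, and ITGB5, a partner of ITGAV, fell by 0.65 on the log2 scale. Of the 27 members, 16 changed (59.3%), where 27.8% of all genes tested changed. Higher were 10 and lower 6, against 10.6% and 17.2% of all genes tested. The background split depends on scaling: 38.1% of all calls were higher as deposited. That share was 45.2% under median-of-ratios scaling, 47.2% after rescaling to the same sum and 48.4% under quantile normalization. Members higher and lower were then 11 and 6, 12 and 5, and 10 and 5. At 2-fold or more there were 5, against 5.19%. Libraries of the groups did not overlap for 20 of the 27, against 46.6% of all genes tested. The median log2 fold change was 0.24 for the members and -0.05 for all genes tested. Without U87MG replicate 3 the count of changed members was 19, and 28.7% of all genes tested changed.

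The resistance comparisons share no library, but all 12 libraries were fitted together and share an estimate of the spread for each gene. The SE of a gene is therefore the same in both, and a deviating library of either line affects the p-values of both. Of the 27 members, 11 changed in both, 5 upward in both lines (ITGA6, ITGAX, LAMB1, LAMB3 and LAMC1), 2 downward in both (ITGA4 and ITGB1), and 4 in opposite directions (ITGA2, ITGA7, LAMA1 and LAMA4). ITGAX passed the filter through the U87 libraries alone and had at most 0.93 FPKM in the U251 lines. Over all genes tested, 15.6% changed in both lines, and 55.4% of those had the same direction, against 63.6% of the 11 members. The size of the change differed between the lines for 16 of the 27 (59.3%), by the test of the difference itself, where 47.6% of all genes tested differed. The change in U251TR was the higher for 8 (background 32.1%) and the lower for 8 (background 15.4%), and 8 differed by 2-fold or more (background 18.4%). The background split depends on scaling: of all calls, 67.6% were higher as deposited, 53.8% under median-of-ratios scaling and 52.4% under quantile normalization, with 7 members higher and 9 lower under both. The plot of changes by gene sets the comparisons side by side.

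**Figure D2:**
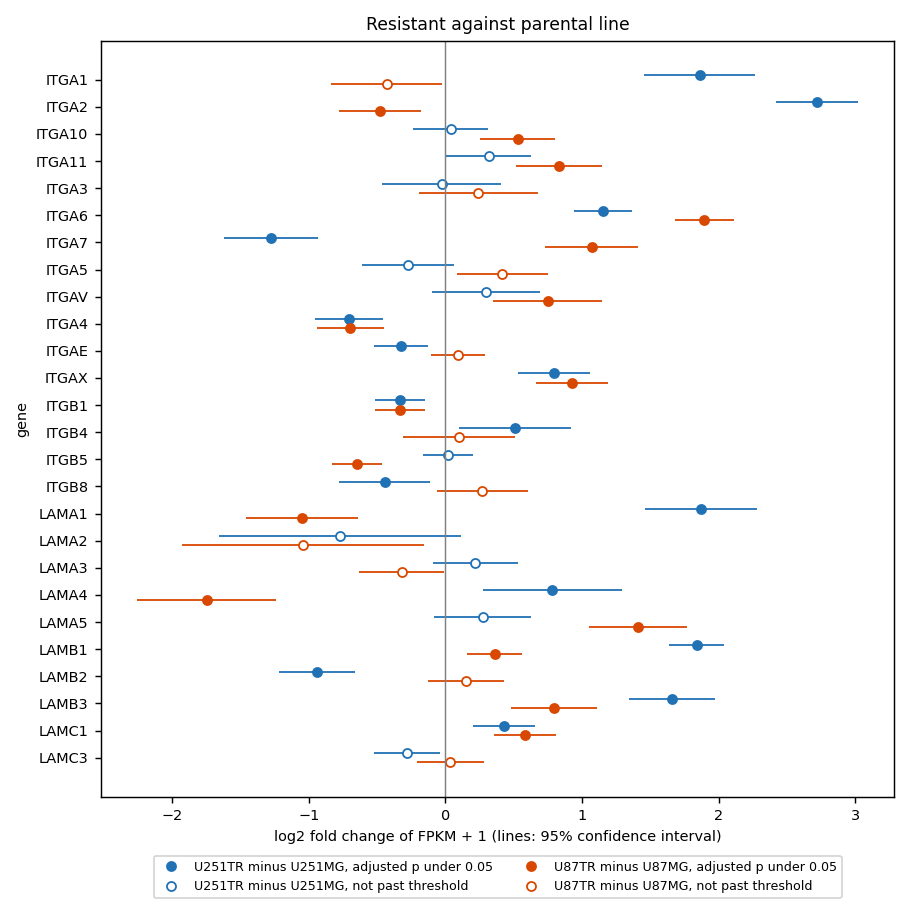
Log2 fold change of FPKM + 1 (x axis) of the named members that passed the filter (y axis) in U251TR against U251MG (blue) and U87TR against U87MG (orange). Filled points passed an adjusted p of 0.05, open points did not, and lines are 95% confidence intervals; ITGA2, ITGA7, LAMA1 and LAMA4 have filled points on opposite sides of 0.

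Among the ligands, the laminin beta chains had the clearest exchange in U251. LAMB1, the beta chain of the first embryonic laminin and of laminins of vessel walls, stood at 52.3, 43.7 and 53.3 FPKM in the U251MG libraries and at 189.6, 183 and 168 FPKM in the U251TR libraries. Every U251TR library lay above every U251MG library, and the rise passed the test (log2 fold change 1.84, SE 0.09, adjusted p = 1.57e-08). LAMB2, the beta chain of synaptic and renal laminins, went the other way. Its values were 194, 190.1 and 182 FPKM in U251MG and 104, 115 and 78.8 FPKM in U251TR (log2 fold change -0.94, SE 0.13, adjusted p = 6.48e-05), again with no overlap. As a share of the summed FPKM of the beta chain genes, LAMB1 went from 20.4% ± 2.02 to 60.5% ± 2.85 and LAMB2 from 77.4% ± 1.78 to 33% ± 3.19 (SD, n = 3). In each U251MG library LAMB2 exceeded LAMB1, and in each U251TR library LAMB1 exceeded LAMB2.

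The U87 lines showed a smaller change of the same chains. LAMB1 had 70.5, 69.7 and 60.5 FPKM in U87MG and 87.9, 87.8 and 82.2 FPKM in U87TR (log2 fold change 0.36, SE 0.09, adjusted p = 0.0125). LAMB2 had 76.7, 87.7 and 97.9 and 95.1, 91 and 104 FPKM, groups that overlapped, and no change passed (log2 fold change 0.15, SE 0.13, adjusted p = 0.432, 95% confidence interval -0.13 to 0.43). The change in U251TR exceeded that in U87TR by 1.48 (SE 0.13, adjusted p = 3.31e-06) for LAMB1 on the log2 scale, and for LAMB2 the difference was -1.09 (SE 0.18, adjusted p = 0.000422). LAMB3, a beta chain that joins LAMA3 in an epithelial laminin, rose in both lines. It had 4.81, 5.93 and 4.88 FPKM in U251MG and 18.8, 18.7 and 18.1 FPKM in U251TR (log2 fold change 1.66, SE 0.14, adjusted p = 1.65e-06). In U87MG it had 16.6, 20.4 and 27.1 FPKM and in U87TR 39.6, 37.8 and 34.1 FPKM (log2 fold change 0.79, SE 0.14, adjusted p = 0.00154). Neither line pair overlapped. Its partner LAMA3 stayed low, with at most 2.98 FPKM in any library.

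**Figure D3:**
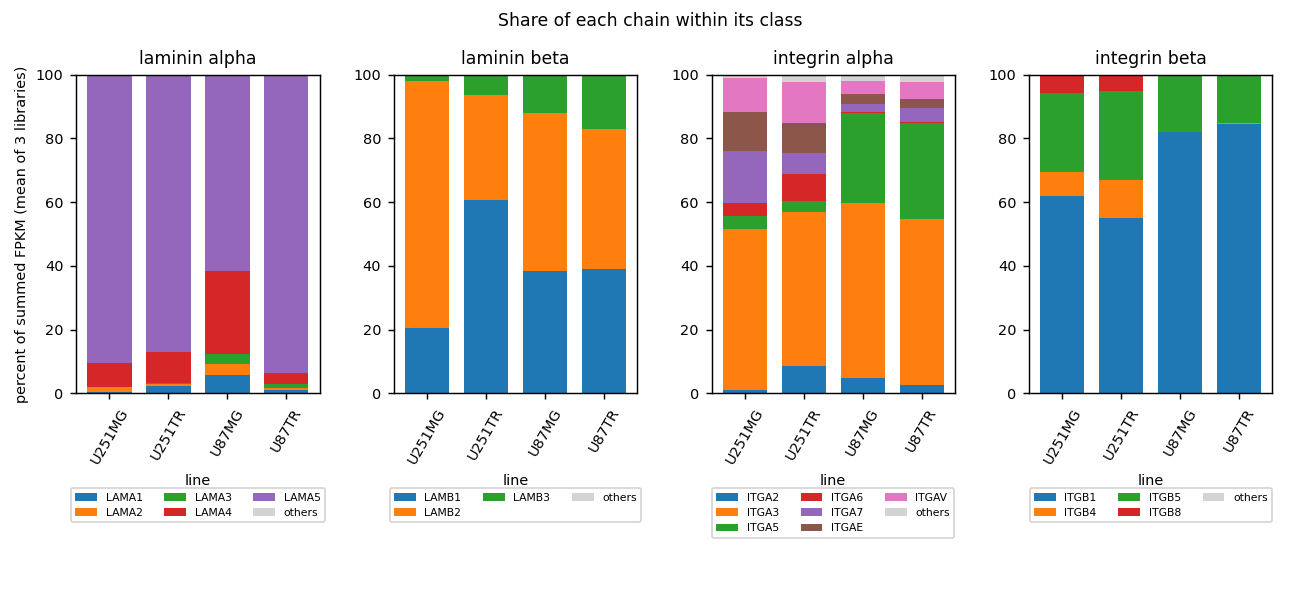
Stacked bars of the share of each gene in the summed FPKM of its class (y axis, percent, mean of 3 libraries) in the 4 lines, for laminin alpha, laminin beta, integrin alpha and integrin beta genes; genes under 2% in every line are pooled as others. LAMB1 makes up 20.4% of the beta chain sum in U251MG and 60.5% in U251TR, and LAMA4 makes up 26% of the alpha chain sum in U87MG and 3.67% in U87TR.

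The laminin alpha chains carry the globular end that integrins bind, and in U87 they shifted toward LAMA5. LAMA5, the alpha chain of the widespread adult laminins, had 37.4, 39.2 and 60.7 FPKM in U87MG and 124, 119 and 118 FPKM in U87TR (log2 fold change 1.41, SE 0.16, adjusted p = 5.31e-05). All 3 U87TR libraries lay above all 3 U87MG libraries. LAMA4, the alpha chain typical of vessel walls, had 22.4, 22.7 and 11.7 FPKM in U87MG and 4.54, 5.28 and 4.34 FPKM in U87TR (log2 fold change -1.75, SE 0.23, adjusted p = 0.000168). U87MG replicate 3 was the lowest of its group for LAMA4 and the highest for LAMA5, and it still did not overlap with U87TR. The share of LAMA5 in the alpha chain sum went from 61.7% ± 13.8 to 93.4% ± 0.321, and that of LAMA4 from 26% ± 9.61 to 3.67% ± 0.398 (SD, n = 3). In U87MG the LAMA4 share was 31.7%, 31.5% and 15% in replicates 1, 2 and 3.

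In U251 the order of the alpha chains was kept, with LAMA5 first and LAMA4 second in all 6 libraries. LAMA5 had 182, 147 and 172 FPKM in U251MG and 231, 203 and 174 FPKM in U251TR, which overlapped (log2 fold change 0.27, SE 0.16, adjusted p = 0.182). LAMA4 had 10.7, 18 and 10.7 FPKM in U251MG and 23.7, 21.7 and 22.6 FPKM in U251TR (log2 fold change 0.78, SE 0.23, adjusted p = 0.0138). That rise did not pass without U251MG replicate 1 (adjusted p = 0.0547) or replicate 3 (adjusted p = 0.0556), with adjusted p 2.75e-06 to 0.0556 over 17 other settings. CDH5, a gene of endothelial cells, moved with LAMA4 in U251, from 6.69 ± 1.35 to 11.2 ± 0.624 FPKM (SD, n = 3). The endothelial genes VWF and TIE1 had at most 0.47 and 0.16 FPKM in the U251 lines, and the 3 markers summed to 6.15 to 8.72 FPKM in U251MG and 11.04 to 12.12 FPKM in U251TR. The part of CDH5-expressing cells in the LAMA4 result was not tested.

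LAMA1, the alpha chain of the first laminin made by the embryo, moved in opposite directions at a low level. It had 0.6, 1.08 and 0.83 FPKM in U251MG and 5.6, 6.58 and 4.98 FPKM in U251TR (log2 fold change 1.87, SE 0.19, adjusted p = 5.57e-06). U87MG had 5.51, 4.51 and 2.66 FPKM and U87TR 1.4, 1.37 and 1.59 FPKM (log2 fold change -1.05, SE 0.19, adjusted p = 0.00141). The libraries overlapped in neither line. LAMA2, the alpha chain of muscle laminin, had at most 4.59 FPKM. No change of it passed on all libraries, with log2 fold changes of -0.77 (adjusted p = 0.131) in U251TR and -1.04 (adjusted p = 0.0779) in U87TR. Without U251MG replicate 2 it did in U251TR, at -1.20 (adjusted p = 0.0176, with 0.0156 to 0.445 over 16 other settings). In U87TR the change of LAMA2 passed when the U87 libraries were fitted alone (adjusted p = 0.0185, with 0.0185 to 0.243 over 16 other settings). LAMA3 had log2 fold changes of 0.22 (adjusted p = 0.221) in U251TR and -0.32 (adjusted p = 0.12) in U87TR. The U251TR value passed with a pseudocount of 0.1 FPKM, at 1.30 (adjusted p = 0.00187; 0.00187 to 0.533 over 15 other settings). The U87TR value passed without U87MG replicate 3, at -0.48 (adjusted p = 0.0152; 0.0124 to 0.408 over 16 other settings).

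LAMC1 is the gamma chain of most laminins. LAMC1 had 66.8, 53 and 71.7 FPKM in U251MG and 89.3, 80.0 and 87.6 FPKM in U251TR (log2 fold change 0.43, SE 0.10, adjusted p = 0.00434). In U87MG it had 82.1, 81.7 and 76.3 FPKM and in U87TR 128, 121 and 112 FPKM (log2 fold change 0.58, SE 0.10, adjusted p = 0.00145). LAMC1 was thus higher in both resistant lines, with no overlap. The difference between these changes, -0.15 (SE 0.15, adjusted p = 0.42), did not pass. It did without U251MG replicate 2, at -0.28 (adjusted p = 0.0404; 0.0404 to 0.744 over 22 other settings). LAMC3, a gamma chain of retina and brain, had log2 fold changes of -0.28 (adjusted p = 0.0516) and 0.04 (adjusted p = 0.857). Its U251TR value passed without U251MG replicate 2, at -0.35 (adjusted p = 0.0222; 0.0222 to 0.207 over 11 other settings).

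The start regions of the exchanging chain genes and of ITGA2 are shown here because the shares of these chains within their class, and the level of ITGA2 in U251TR, moved far. LAMA1, ITGA7 and ITGA1, whose changes also differed widely between the lines, are not shown. Sequences are those of RefSeq on GRCh38.p14, from 250 bases before to 50 after the gene's start, and 26 of the 37 members had an entry. They were joined to the expression table by symbol alone. Capitals mark the GC box GGGCGG or its reverse complement CCGCCC. LAMB1 lies at chr7:108003112-108003411 on the minus strand, LAMB2 at chr3:49133001-49133300 on the minus strand, LAMA4 at chr6:112254518-112254817 on the minus strand, LAMA5 at chr20:62367263-62367562 on the minus strand and ITGA2 at chr5:52989102-52989401 on the plus strand.
LAMB1: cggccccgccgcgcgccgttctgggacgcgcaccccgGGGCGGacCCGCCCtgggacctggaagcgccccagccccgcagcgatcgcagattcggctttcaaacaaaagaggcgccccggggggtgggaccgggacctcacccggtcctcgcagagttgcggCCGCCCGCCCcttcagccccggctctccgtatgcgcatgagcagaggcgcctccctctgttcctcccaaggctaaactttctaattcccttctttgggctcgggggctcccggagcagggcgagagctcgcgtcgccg
LAMB2: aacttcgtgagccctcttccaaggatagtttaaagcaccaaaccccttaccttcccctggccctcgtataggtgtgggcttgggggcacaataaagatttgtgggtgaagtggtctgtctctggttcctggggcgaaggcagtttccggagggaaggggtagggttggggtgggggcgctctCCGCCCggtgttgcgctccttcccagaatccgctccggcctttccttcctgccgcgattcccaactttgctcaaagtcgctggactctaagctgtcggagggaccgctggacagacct
LAMA4: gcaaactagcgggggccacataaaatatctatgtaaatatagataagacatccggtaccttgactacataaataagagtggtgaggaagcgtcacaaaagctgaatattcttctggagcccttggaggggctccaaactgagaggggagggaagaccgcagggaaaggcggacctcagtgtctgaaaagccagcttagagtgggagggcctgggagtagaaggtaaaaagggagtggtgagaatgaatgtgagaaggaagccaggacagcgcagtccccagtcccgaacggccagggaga
LAMA5: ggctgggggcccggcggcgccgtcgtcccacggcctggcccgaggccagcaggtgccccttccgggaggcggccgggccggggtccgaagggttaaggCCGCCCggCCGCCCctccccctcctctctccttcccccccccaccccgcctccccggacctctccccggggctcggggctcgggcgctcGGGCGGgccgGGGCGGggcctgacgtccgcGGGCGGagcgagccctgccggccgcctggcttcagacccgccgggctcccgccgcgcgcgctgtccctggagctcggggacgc
ITGA2: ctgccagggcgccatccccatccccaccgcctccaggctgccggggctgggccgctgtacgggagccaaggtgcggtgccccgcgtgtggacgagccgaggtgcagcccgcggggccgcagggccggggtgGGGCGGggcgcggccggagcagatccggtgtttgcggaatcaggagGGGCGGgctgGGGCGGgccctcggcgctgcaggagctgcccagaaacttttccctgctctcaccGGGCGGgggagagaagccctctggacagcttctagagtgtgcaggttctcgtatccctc
The LAMB1 window held 35 CpG and 4 GC boxes, and that of LAMB2 held 15 CpG and 1 GC box. The LAMA5 window held 41 CpG and 5 GC boxes, while that of LAMA4 held 8 CpG and no GC box. ITGA2 had 27 CpG and 4 GC boxes. Over all 35116 windows of this length the median was 14 CpG, and 45% held a GC box on either strand. On both strands, TATAAA (in 11.5% of all windows) and TGANTCA, the AP-1 motif (in 7.71%), were not found in these 5 windows.

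Among the receptors, ITGA6 was the laminin-binding subunit that rose in both lines. It had 21.9, 18.9 and 22.1 FPKM in U251MG and 50.7, 46.2 and 46.6 FPKM in U251TR (log2 fold change 1.15, SE 0.10, adjusted p = 1.41e-06). U87MG had 0.9, 1.01 and 1.23 FPKM and U87TR 6.96, 6.07 and 6.82 FPKM (log2 fold change 1.90, SE 0.10, adjusted p = 6.17e-08). Both pairs were free of overlap, and the level in U87TR stayed below that of either U251 line. ITGB4, which pairs with ITGA6 in the receptor of epithelial attachment plaques, had 18.4, 28 and 17 FPKM in U251MG and 29.4, 30.1 and 29.9 FPKM in U251TR (log2 fold change 0.51, SE 0.19, adjusted p = 0.0364). The ITGB4 call was lost in 9 of 17 other settings, among them the omission of U251MG replicate 1 or 3 or of any 1 U251TR library (adjusted p 0.00226 to 0.205 over 17 other settings). In U87MG and U87TR it was under 1 FPKM in all 6 libraries.

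ITGA7, a laminin receptor subunit best known from muscle and also found in glioma stem cells, moved in opposite directions. It had 83.6, 90.1 and 84.8 FPKM in U251MG and 40.1, 34.7 and 30.7 FPKM in U251TR (log2 fold change -1.28, SE 0.16, adjusted p = 2.99e-05). U87MG had 21.4, 24.8 and 36 FPKM and U87TR 61.6, 53 and 57.3 FPKM (log2 fold change 1.07, SE 0.16, adjusted p = 0.000346). The difference between the changes was -2.35 (SE 0.22, adjusted p = 5.84e-06). On the opposite strand, 1.31% of its exon bases overlap BLOC1S1 (80.3 to 180.28 FPKM) and 0.48% overlap METTL7B (6.45 to 23.36 FPKM). It is not stated whether the counting used strand, so the ITGA7 values may hold reads of these genes. LAMA5 has such an overlap with ADRM1 (1.71%, 133.3 to 289.38 FPKM) and LAMB1 with DLD (1.61%, 53.96 to 121.27 FPKM). ITGA3, the laminin-binding subunit of epithelia and of many tumours, was the integrin alpha gene with the highest mean in all 4 lines, at 284 ± 96.8, 266 ± 17.2, 572 ± 35.2 and 675 ± 4.05 FPKM (SD, n = 3) in U251MG, U251TR, U87MG and U87TR. Its log2 fold changes were -0.03 (adjusted p = 0.93) in U251TR and 0.24 (adjusted p = 0.407) in U87TR. The libraries of the U87 lines did not overlap, and the U87TR value passed when these libraries were fitted alone (adjusted p = 0.0291). It also passed without U251MG replicate 2 and U87MG replicate 3, at 0.27 (adjusted p = 0.0156, with 0.0156 to 0.624 over 17 other settings). U251MG replicate 2 stood at 174 FPKM against 357 and 321 FPKM in the other U251MG libraries, and without it ITGA3 was lower in U251TR, at -0.35 (adjusted p = 0.00242; 0.00228 to 1 over 17 other settings). The difference between the changes then passed as well, at -0.59 (adjusted p = 0.000593; 0.000593 to 0.846 over 22 other settings).

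**Figure D4:**
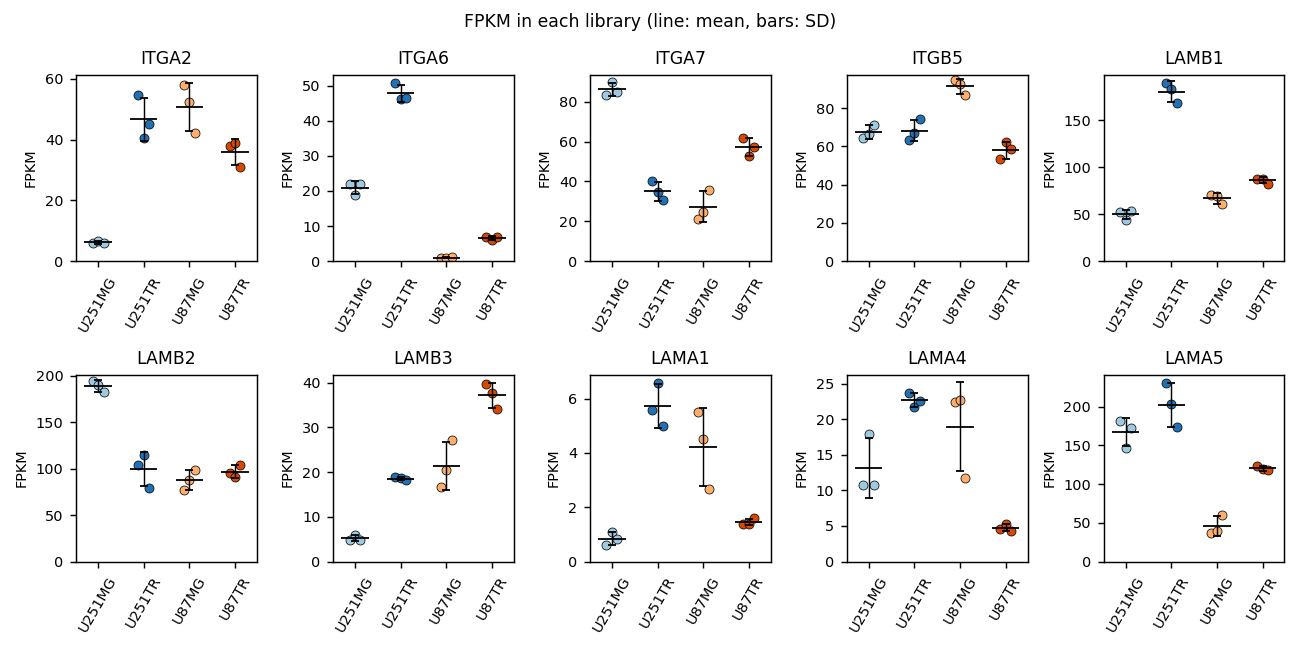
FPKM (y axis) of 10 members in each library of the 4 lines (x axis); points are libraries, horizontal lines are means and bars are SD (n = 3). LAMB1 is high in the 3 U251TR libraries (168 to 189.6 FPKM), ITGA7 is lower in U251TR than U251MG and higher in U87TR than U87MG, and LAMA4 is under 6 FPKM in all U87TR libraries.

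The collagen-binding subunits separated the lines in another way. ITGA2, the platelet and epithelial collagen receptor subunit, had 5.95, 6.8 and 5.83 FPKM in U251MG and 54.5, 40.6 and 45 FPKM in U251TR (log2 fold change 2.72, SE 0.14, adjusted p = 1.69e-08). U87MG had 57.8, 52.4 and 42.2 FPKM and U87TR 37.9, 38.9 and 31.1 FPKM (log2 fold change -0.48, SE 0.14, adjusted p = 0.0222). Levels in U251TR were thus within the range of the U87 lines, while U251MG lay far below. The fall in U87TR was lost in 6 of 17 other settings, among them the omission of U87MG replicate 1 or 2 or of U87TR replicate 3 (adjusted p 0.00342 to 0.0946 over 17 other settings). ITGA1, the other widespread collagen receptor subunit, had 1, 1.24 and 1.65 FPKM in U251MG and 8.73, 7.85 and 5.63 FPKM in U251TR (log2 fold change 1.86, SE 0.19, adjusted p = 5.38e-06). U87MG had 7.85, 7.97 and 6.72 FPKM and U87TR 7.08, 5.08 and 4.09 FPKM, which overlapped (log2 fold change -0.43, SE 0.19, adjusted p = 0.109). Without U87TR replicate 1 that value was -0.61 (adjusted p = 0.0356; 0.0356 to 0.351 over 17 other settings). PELO lies within ITGA1 on the same strand, shares 2.69% of the exon bases of ITGA1, and had 8.88 to 18.69 FPKM, so reads there can be split. The line difference was 3.20 (SE 0.20, adjusted p = 1.63e-07) for ITGA2 and 2.29 (SE 0.26, adjusted p = 2.57e-05) for ITGA1.

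ITGA11 and ITGA10, collagen receptor subunits of fibroblasts and of cartilage, were measured mainly in the U87 lines. ITGA11 had 6.47, 6.1 and 5.92 FPKM in U87MG and 13.9, 11.2 and 10.4 FPKM in U87TR (log2 fold change 0.83, SE 0.14, adjusted p = 0.00111). In the U251 lines it reached at most 1.04 FPKM, and no change passed (log2 fold change 0.32, SE 0.14, adjusted p = 0.0835). That value passed without U251MG replicate 3, at 0.43 (adjusted p = 0.0338; 0.0338 to 0.411 over 16 other settings). The difference between the changes of ITGA11, -0.52 (SE 0.20, adjusted p = 0.0539), passed in 10 of 22 other settings (0.00192 to 0.757 over 22 other settings). ITGA10 rose in U87TR from 1.31 ± 0.335 to 2.33 ± 0.382 FPKM (SD, n = 3; adjusted p = 0.00823) and stayed at or under 0.35 FPKM in the U251 libraries. In U87TR the collagen receptor genes went both ways, with ITGA10 and ITGA11 up and ITGA2 down.

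Of the RGD-binding subunits, ITGA5 separated the U251 from the U87 lines and ITGAV rose in U87TR. ITGA5, the fibronectin receptor subunit, had 27, 16.8 and 26.1 FPKM in U251MG and 19.7, 17.3 and 19.2 FPKM in U251TR (log2 fold change -0.27, SE 0.15, adjusted p = 0.154). U87MG had 265, 279.8 and 345 FPKM and U87TR 394, 384 and 403 FPKM (log2 fold change 0.42, SE 0.15, adjusted p = 0.0628). U87TR libraries were all above U87MG, yet the change did not pass on all libraries. It passed in 6 of 17 other settings, among them the omission of U87MG replicate 3, at 0.53 (adjusted p = 0.0318; 0.000125 to 0.196 over 17 other settings). In U251TR it passed as a fall without U251MG replicate 2, at -0.48 (adjusted p = 0.00164; 8.81e-05 to 0.452 over 17 other settings). FN1, the gene of fibronectin, rose in U87TR from 481 ± 165 to 2114 ± 289 FPKM (SD, n = 3), with a log2 fold change of 2.18 (adjusted p = 3.89e-06). FN1 also rose in U251TR, from 41.7 ± 4.13 to 63 ± 4.86 FPKM (SD, n = 3), with a log2 fold change of 0.59 (adjusted p = 0.0186). ITGAV, the alpha subunit of the vitronectin receptors, had 44.8, 35.7 and 43.9 FPKM in U87MG and 81.5, 74.9 and 56.4 FPKM in U87TR (log2 fold change 0.75, SE 0.18, adjusted p = 0.00942). In U251MG it had 63.6, 42.5 and 67.5 FPKM and in U251TR 76.1, 74.7 and 60.4 FPKM, with overlap (log2 fold change 0.30, SE 0.18, adjusted p = 0.189). The difference between the changes of ITGAV was -0.45 (SE 0.26, adjusted p = 0.172) and did not pass. It did without U251MG replicate 2, at -0.66 (adjusted p = 0.0204; 0.0204 to 0.342 over 22 other settings).

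Of the subunits named for leukocytes, 3 passed the filter. ITGA4, which binds VCAM1 and fibronectin, fell in both lines, from 3.72 ± 0.385 to 1.89 ± 0.0709 FPKM in U251 and from 3.21 ± 0.335 to 1.6 ± 0.28 FPKM in U87 (SD, n = 3). The log2 fold changes were -0.70 (adjusted p = 0.000252) and -0.70 (adjusted p = 0.000772). CERKL, which overlaps 26.4% of its exon bases on the opposite strand, had 0.29 to 1.53 FPKM. ITGAX, the alpha subunit of complement receptor 4, rose in both lines. It had 3.43, 2.93 and 4.27 FPKM in U87MG and 8.01, 6.88 and 7.91 FPKM in U87TR (log2 fold change 0.93, SE 0.12, adjusted p = 0.000137). In U251MG it had 0.02, 0.03 and 0.01 FPKM and in U251TR 0.93, 0.69 and 0.71 FPKM (log2 fold change 0.80, SE 0.12, adjusted p = 0.000152). At these low U251 values the size depends on the pseudocount, and with 0.1 FPKM the log2 fold change in U251TR was 2.86. The difference between the changes, -0.13 (SE 0.17, adjusted p = 0.561), passed at 1.77 with that pseudocount (adjusted p = 0.00033) and at -0.36 with a pseudocount of 5 FPKM (adjusted p = 0.0044). CD68 also rose in both, with log2 fold changes of 0.92 (adjusted p = 0.00073) and 0.76 (adjusted p = 0.00619), while PTPRC, CD3E and SPI1 had at most 0.08, 0.05 and 0.15 FPKM in any library. The part of CD68-expressing cells in the ITGAX result was not tested. ITGAE, known as the alpha subunit of T cells within epithelia, had 68.9, 60.7 and 71.1 FPKM in U251MG and 49.8, 52.4 and 57.4 FPKM in U251TR (log2 fold change -0.33, SE 0.09, adjusted p = 0.00959). That fall was lost after rescaling every library to the same sum (adjusted p = 0.0589; 0.00226 to 0.0589 over 17 other settings). In U87MG it had 32.9, 30.5 and 33.3 FPKM and in U87TR 31.5, 37.6 and 34.6 FPKM, with overlap (log2 fold change 0.09, SE 0.09, adjusted p = 0.49). ITGB7, its beta partner, reached at most 0.21 FPKM in the U251 lines and 1.46 FPKM in U87TR. ZNF740 overlaps 42.26% of the exon bases of ITGB7 on the opposite strand and had 10.2 to 28.88 FPKM. Since the use of strand is not stated, the ITGB7 values may hold reads of ZNF740.

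Of the beta subunits, ITGB1 had the highest mean in all 4 lines and fell slightly in both resistant lines. It had 176, 151 and 182 FPKM in U251MG and 143, 134 and 127 FPKM in U251TR (log2 fold change -0.33, SE 0.08, adjusted p = 0.00568). U87MG had 409, 418 and 439.7 FPKM and U87TR 355, 340.4 and 312 FPKM (log2 fold change -0.33, SE 0.08, adjusted p = 0.0119). Both pairs were free of overlap, but the first call was lost after rescaling to the same sum (adjusted p = 0.0663; 0.000511 to 0.0663 over 17 other settings). The second was lost without U87TR replicate 3 (adjusted p = 0.0529; 0.00644 to 0.0529 over 17 other settings). ITGB5, which pairs with ITGAV, fell in U87TR from 94.9, 92.3 and 87.1 FPKM to 53.4, 62.3 and 58.4 FPKM (log2 fold change -0.65, SE 0.08, adjusted p = 0.000127). In U251 it had 64.2, 66.3 and 71.3 FPKM and 63.4, 67.1 and 74.3 FPKM (log2 fold change 0.02, SE 0.08, adjusted p = 0.88, 95% confidence interval -0.16 to 0.20). In U87TR, then, ITGAV was higher and its partner ITGB5 lower. ITGB8, the partner of ITGAV that releases active TGF-beta, had 14.6, 18.8 and 13.1 FPKM in U251MG and 11.9, 12.4 and 9.04 FPKM in U251TR (log2 fold change -0.44, SE 0.15, adjusted p = 0.0265). That fall was lost in 7 of 17 other settings, among them the omission of U251MG replicate 2 (adjusted p = 0.0884) or U251TR replicate 3 (adjusted p = 0.116; 0.00384 to 0.116 over 17 other settings). In the U87 lines ITGB8 had at most 1.17 FPKM.

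The parental lines themselves differed in most of these genes. In U87MG against U251MG, 24 of the 27 members differed (88.9%), where 72.3% of all genes tested differed. Higher in U87MG were 15 (background 32.2%) and lower 9 (background 40.1%), and 19 differed by 2-fold or more (background 31.6%). Libraries did not overlap for 23 of the 27, against 72.3% of all genes tested. ITGA5 was 12.4-fold higher in U87MG and ITGA2 7.15-fold higher, with log2 fold changes of 3.63 (adjusted p = 6.28e-10) and 2.84 (adjusted p = 2.38e-09). ITGA11, ITGAX, ITGA1, LAMB3 and LAMA3 were higher as well, with log2 fold changes of 2.26, 2.14, 1.90, 1.83 and 1.69. LAMA1, ITGB1 and ITGA3 were higher by 1.48, 1.32 and 1.07. Lower in U87MG were ITGB4, ITGA6 and ITGB8, with log2 fold changes of -3.83 (adjusted p = 2.52e-09), -3.42 (adjusted p = 1.97e-11) and -3.29 (adjusted p = 1.45e-09). LAMA5, ITGA7, LAMB2 and ITGAE were lower by smaller amounts, from -1.87 to -1.03. The summed FPKM of the 18 integrin alpha genes was 552 ± 119 in U251MG and 1043 ± 70.5 in U87MG, and 551 ± 18.8 and 1304 ± 16.9 in U251TR and U87TR (SD, n = 3). ITGA3 held 50.4% ± 7.55 of that sum in U251MG and 54.8% ± 1.96 in U87MG. The subunit next to it was ITGA7 in U251MG (16.3% ± 4.69), ITGAV in U251TR (12.8% ± 1.68) and ITGA5 in U87MG and U87TR (28.3% ± 2.2 and 30.2% ± 0.996). The parental comparison shares its U251MG and U87MG libraries with the resistance comparisons, so its values are not independent of theirs. ITGA4, LAMA2 and LAMA4 did not pass between the parents on all libraries. LAMA4 did without U251MG replicate 2, at 0.71 (adjusted p = 0.0121), or U87MG replicate 3, at 0.77 (adjusted p = 0.00302), and had adjusted p 2.87e-06 to 0.279 over 17 other settings. The ITGAV call, at -0.45 (adjusted p = 0.0418), was lost in 9 of 17 other settings, among them the omission of U251MG replicate 1 or 3 or U87MG replicate 2 or 3 (adjusted p 0.0026 to 0.158 over 17 other settings).

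The proteins that bind integrin tails and build focal adhesions were taken as a list of 24 genes, of which 22 were tested. This list and those that follow were chosen with earlier results of these data known. Their shares beside the background are therefore descriptive only. In U251TR 5 rose and 9 fell (63.6% changed, against 53.2% of all genes tested, 33.6% upward and 19.6% downward), with a median log2 fold change of -0.08. In U87TR none rose and 9 fell (40.9% changed, against 27.8%, 10.6% upward and 17.2% downward), with a median of -0.21. TNS3, a tensin, and PTK2, the focal adhesion kinase gene, rose in U251TR, with log2 fold changes of 1.41 (adjusted p = 1.27e-07) and 0.95 (adjusted p = 1.46e-06). FLNA, the actin crosslinker filamin A, fell there from 610.1 ± 64.9 to 204 ± 6.68 FPKM, and VCL, the gene of vinculin, from 122 ± 32.4 to 55.1 ± 1.28 FPKM (SD, n = 3). In U87TR the kindlin gene FERMT3 fell from 12.1 ± 1.18 to 4.46 ± 0.237 FPKM (SD, n = 3). LIMS1, PARVA and TLN1, which link integrins to actin, had log2 fold changes of -0.73 (adjusted p = 0.00924), -0.65 (adjusted p = 0.00027) and -0.38 (adjusted p = 0.0062) in U87TR.

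Integrin ligands other than collagens and laminins were a list with 13 genes tested. In U251TR 7 rose and 5 fell (92.3% changed, against 53.2% of all genes tested), with a median log2 fold change of 0.59. In U87TR 4 rose and 2 fell (46.2% changed, against 27.8%, 10.6% upward and 17.2% downward), with a median of 0.00. SPP1, the gene of osteopontin, rose in U251TR from 43.7 ± 11.1 to 375 ± 33.1 FPKM and fell in U87TR from 214 ± 35.6 to 92.6 ± 11.6 FPKM (SD, n = 3). EDIL3, an RGD protein that binds ITGAV receptors, moved the other way, with log2 fold changes of -3.60 (adjusted p = 3.75e-09) in U251TR and 0.99 (adjusted p = 0.000484) in U87TR. POSTN and TNC, which code for the matrix proteins periostin and tenascin-C, fell in U251TR, with log2 fold changes of -3.87 (adjusted p = 8.52e-11) and -2.37 (adjusted p = 4.08e-09). TNC rose in U87TR from 302 ± 51.3 to 441 ± 22.7 FPKM (SD, n = 3), with a log2 fold change of 0.56 (adjusted p = 0.00162). POSTN had at most 0.07 FPKM in the U87 lines. ICAM1, the ligand of leukocyte integrins, fell in U87TR from 7.55 ± 0.995 to 0.94 ± 0.211 FPKM (SD, n = 3).

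Basement membrane partners and other laminin receptors had 13 genes tested. In U251TR 4 rose and 2 fell (46.2% changed, below the 53.2% of all genes tested), with a median log2 fold change of 0.10. In U87TR 3 rose and 4 fell (53.8% changed, against 27.8%, 10.6% upward and 17.2% downward), with a median of 0.06. AGRN, whose product agrin binds laminins and dystroglycan, rose in both lines, from 106 ± 4.05 to 196 ± 2.82 FPKM and from 58.1 ± 8 to 115 ± 2.67 FPKM (SD, n = 3). SDC4, a syndecan that acts beside integrins, also rose in both, with log2 fold changes of 1.00 (adjusted p = 0.000722) and 0.68 (adjusted p = 0.0168). SDC1, another syndecan gene, rose in U251TR by 0.68 (adjusted p = 0.000946) on the log2 scale. RPSA, which codes for a ribosomal protein once described as a laminin receptor and has many pseudogene copies that may share its reads, had -0.79 (adjusted p = 7.33e-06). CD151, a tetraspanin that binds laminin-binding integrins, fell in U87TR from 437 ± 33.1 to 279 ± 8.7 FPKM (SD, n = 3). NID1, which codes for the nidogen that joins laminin to collagen IV, fell in U87TR from a low level of 0.82 ± 0.122 to 0.02 ± 0.0173 FPKM (SD, n = 3). It had 30.3 ± 6.17 and 35.5 ± 1.15 FPKM in U251MG and U251TR.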

How the data were processed

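RNA of 12 libraries, 3 from each of 4 cell lines, was sequenced by the submitters. The submitters' processing notes name STAR 2.5.2b, RSEM 1.2.31 and hg19, while the design text names hg38. The authors deposited 1 table of values by gene symbol, taken here as FPKM. No header states that unit. It was inferred from library sums that differ and from FPKM times mean GENCODE v44 transcript length, which summed to 0.911 to 0.976 of what FPKM would give (0.761 to 0.809 with median and 2.01 to 2.17 with longest transcripts, 19974 symbols matched). Date-like symbols (27) were left out.

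The filter (1 FPKM in 3 libraries) left 15449 genes. Their log2(FPKM + 1) values were fitted with limma 3.58.1 under R 4.3.3, using a mean for each of the 4 groups, a trend and robust moderation. Tests are two-sided, with Benjamini-Hochberg adjustment over all genes tested and a threshold of 0.05. Fold changes and SE are on this scale, which understates changes of low genes. The fit was tested on simulated data. Every member is accounted for, and library values are given for changed members with 5 FPKM or more in a group mean. In the other lists, up to 4 called genes with the largest changes per comparison are named. CD68, CDH5 and other markers were named after their values were seen. Members and lists were chosen with earlier results of these data known. Some genes of the families are not analysed here, and 1 tested member is in the counts but not reported here.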

Additional observations from a re-analysis of the deposited data

Results flagged for a closer look

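For 16 members the change in U251TR differed from that in U87TR, by limma's test of the difference between the changes (adjusted p under 0.05). Differences are the log2 change in U251TR minus that in U87TR. The change was higher in U251TR for ITGA2 (3.20), LAMA1 (2.92), LAMA4 (2.53), ITGA1 (2.29), LAMB1 (1.48), LAMB3 (0.86), ITGB5 (0.67) and LAMA3 (0.54). It was lower in U251TR for ITGA7 (-2.35), LAMA5 (-1.14), LAMB2 (-1.09), ITGA6 (-0.74), ITGB8 (-0.72), ITGA5 (-0.69), ITGA10 (-0.49) and ITGAE (-0.42).

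The ITGA6 difference turned to 0.0846 with a pseudocount of 5 FPKM (adjusted p = 0.509). The LAMA3 call was lost in 15 of 21 other settings and the ITGA10 call in 12 of 21. LAMA3 and ITGA10 passed the filter through the U87 libraries alone. They had at most 0.27 and 0.35 FPKM in the U251 lines, where the scale understates changes. The ITGA5 call was lost without U251MG replicate 3 (adjusted p = 0.0513) or U87MG replicate 1 (adjusted p = 0.0508), and that of ITGAE without U87TR replicate 2 (adjusted p = 0.0517). For the other 11 of these genes the call was kept in every other setting that tested them, apart from the 2-fold rule.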

How the results depend on the processing

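With a call also needing at least 2-fold, 7 members were called in U251TR, 5 in U87TR and 8 for the difference between the changes. The other settings kept these counts within 1.5 times. Leaving out 1 library gave 14 to 19 in U251TR, 14 to 19 in U87TR, 13 to 19 for the difference and 22 to 25 between the parents. Over the same fits, the shares of all genes called were 46.4% to 57.8%, 19% to 28.7%, 41.6% to 54.3% and 68% to 74.3%. The highest counts came without U251MG replicate 2 or, in U87TR, without U87MG replicate 3. Without both, a setting chosen after the data were seen, the counts were 19, 21, 20 and 25, and the shares of all genes called were also higher, at 61.8%, 40.9%, 56.9% and 73.9%. The labels do not state whether same-numbered libraries were handled together. Deviations of same-numbered libraries had correlations of -0.06 to 0.12, which with 3 libraries a group cannot show that pairing was absent. A replicate block gave 16, 17, 15 and 24 members, with 52.6%, 26.5%, 46.6% and 72.1% of all genes called. Under it the ITGA10 and LAMA3 differences lost their call, and the ITGA11 difference (adjusted p = 0.0496) and ITGA5 in U87TR (adjusted p = 0.0401) gained one. Called members kept their call in all settings but the 2-fold rule for 11 of 16 in U251TR, 14 of 16 in U87TR, 11 of 16 for the difference and 23 of 24 between the parents. ITGA6 (0.0846, pseudocount 5) and ITGAX (1.77, adjusted p = 0.00033, pseudocount 0.1) turned in sign for the difference, while ITGAX passed at -0.36 with a pseudocount of 5. Median-of-ratios scaling moved the median difference of all genes from 0.17 to 0.02. Without counts, precision at low levels is unknown.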
